A study of Mus musculus with 2 samples.

Results

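Peaks at noncoding RNA gene starts are CTCF peaks whose summit, the base of highest signal, lies within 1 kb of a transcript start of a lincRNA, antisense or processed_transcript gene and more than 1 kb from every transcript start of a protein-coding gene. Gene types and starts came from GENCODE vM21 on mm10, and chromosomes 1 to 19 were used. The rule kept 1169 of the 66972 peaks of the optimal list on those chromosomes, or 1.75%, from 29 on chromosome 16 to 92 on chromosome 7. The rule used positions and annotation only, and no signal. The study mapped CTCF by chromatin immunoprecipitation and sequencing (ChIP-seq) in midbrain tissue from B6NCrl mice at postnatal day 0. It had 1 group of 2 replicates and no second condition. The labels give both replicates 1 biosample and 1 donor, which means that their spread may be purely technical, and sex was not collected. The optimal list is the deposited set of peaks that passed a threshold on the irreproducible discovery rate (IDR). Its signal value per peak is the authors', on a scale the deposited notes do not describe.

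CTCF, a protein with many zinc fingers, recognises an extended and asymmetric stretch of DNA. Together with the cohesin ring it anchors chromatin loops and marks borders of chromosomal domains. LincRNA genes lie between protein-coding genes, antisense genes are transcribed from the strand opposite to another gene, and processed transcripts are noncoding RNAs placed in neither class. Many such RNAs stay in the nucleus, several belong to imprinted domains in which only 1 parental copy is transcribed, and others carry small nucleolar RNAs or microRNAs in their introns. CTCF is also known at starts of protein-coding genes, which tend to be rich in GC and in CpG dinucleotides.

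The sequences below show the DNA under some of the strongest of these summits. A chromosome was left out of the sequences shown, so the strongest peak of all, at AC113104.3, is not among them. The first set gives 2 of the strongest members of each gene type on the chromosomes used that hold a match to the CTCF motif, with the 20 bp match in capitals and 15 bp on each side, read 5′ to 3′ on the strand of the match. The motif matrix came from the highest-signal peaks of this series, and its consensus is GTGGCCACCAGGGGGCGCCA. Every match shown differs from that consensus at 3 to 8 positions. Gm33195 and Gm31408 are lincRNA genes, A930015D03Rik and Gm16538 antisense genes, and Gm45463 and Gm42109 processed transcripts.
Gm33195, chr13:43864748-43864797 (+): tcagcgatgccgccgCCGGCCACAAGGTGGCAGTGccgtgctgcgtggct
Gm31408, chr9:31559640-31559689 (+): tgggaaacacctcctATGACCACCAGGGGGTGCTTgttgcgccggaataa
A930015D03Rik, chr17:35993806-35993855 (-): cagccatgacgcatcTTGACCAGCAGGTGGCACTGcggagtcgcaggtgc
Gm16538, chr19:5727988-5728037 (-): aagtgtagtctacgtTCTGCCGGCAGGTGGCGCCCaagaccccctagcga
Gm45463, chr8:93011615-93011664 (+): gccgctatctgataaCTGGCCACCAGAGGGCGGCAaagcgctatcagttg
Gm42109, chr5:90589110-90589159 (-): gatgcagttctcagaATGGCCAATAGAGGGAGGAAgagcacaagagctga

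The second set gives the strongest motif-bearing start peak of a named noncoding RNA in each of 5 gene lists described further on, in the same layout and with the same chromosome left out. In the nuclear and brain list that left out Epb41l4aos, which was stronger than the gene shown.
Meg3, chr12:109543021-109543070 (-): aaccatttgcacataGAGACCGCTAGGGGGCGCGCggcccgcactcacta
Snhg15, chr11:6528870-6528919 (-): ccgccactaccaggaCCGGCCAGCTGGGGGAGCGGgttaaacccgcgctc
Hoxd3os1, chr2:74715902-74715951 (+): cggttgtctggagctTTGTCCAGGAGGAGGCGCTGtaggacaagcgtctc
Sox2ot, chr3:34639387-34639436 (-): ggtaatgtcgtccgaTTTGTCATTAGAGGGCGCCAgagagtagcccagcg
Rapgef4os1, chr2:72149244-72149293 (-): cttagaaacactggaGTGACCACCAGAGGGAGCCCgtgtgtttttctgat

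The third set shows 3 of the strongest members without a match at the threshold used, as 81 bp about the summit on the plus strand, with CpG dinucleotides in capitals. Gm31812 holds 10 CpG in this window, AC122818.2 holds 2 and Gm12925 holds 0. The absence of a match says only that no 20 bp window within 50 bp of the summit passed the threshold.
AC122818.2, chr17:87571761-87571841 (+): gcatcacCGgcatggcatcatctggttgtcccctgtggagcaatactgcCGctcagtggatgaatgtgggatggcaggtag
Gm31812, chr1:52113923-52114003 (+): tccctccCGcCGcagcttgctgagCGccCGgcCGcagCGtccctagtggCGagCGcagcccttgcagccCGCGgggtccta
Gm12925, chr4:123667692-123667772 (+): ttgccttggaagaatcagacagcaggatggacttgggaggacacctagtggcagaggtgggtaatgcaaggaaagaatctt

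CTCF peaks lay at the starts of a minority of noncoding RNA genes. Of 7349 lincRNA, antisense and processed_transcript genes with at least 1 start more than 1 kb from every coding start, 979 had a peak at such a start, or 13.3% (95% Wilson interval 12.6 to 14.1, counting error only). The share was 12.7% of lincRNA genes (619 of 4867; 11.8 to 13.7), 13.4% of antisense genes (263 of 1967; 11.9 to 14.9) and 18.8% of processed transcripts (97 of 515; 15.7 to 22.4). Processed transcripts thus had the highest share, with an interval clear of the other 2, and the lincRNA and antisense shares differed by less than their intervals. Over the 19 chromosomes the share averaged 13.3% with an SD of 2.12, from 10.3% on chromosome 15 to 16.9% on chromosome 7. For background, a peak lay within 1 kb of a start of 24.3% of all annotated genes, 44.2% of protein-coding genes, 15.4% of lincRNA genes, 24.4% of antisense genes and 33.6% of processed transcripts when closeness to a coding start was ignored. A gene with more annotated starts has more chances to hold a peak, and the number of starts was not taken into account in these shares. A gene without a peak is one where none was listed, since the read depth is unknown.

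The nearest noncoding gene was a lincRNA for 695 of the peaks, an antisense gene for 329 and a processed transcript for 145. They were nearest to 1015 genes, of which 946 bear only a placeholder symbol (Gm, Rik, clone or cDNA numbers) and 69 bear another symbol. Most genes, 879, had 1 such peak, 122 had 2 and 14 had more, namely 11 with 3, 2 with 4 and 1 with 5. The peaks are not all separate. A further member lay within 500 bp upstream along the chromosome for 37 of them, with a smallest gap of 199 bp. Starts were also shared, since 38 peaks lay within 1 kb of starts of 2 or more noncoding genes, 30 of them with genes on both strands. Another 926 peaks lay within 1 kb of both a noncoding and a coding start, and the rule leaves these out.

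Members just inside and just outside the distances of the rule were single peaks of unlike strength. The summit at A730056A06Rik, 1000 bp from its start, had a signal of 377, and the summit at Gm16302, 1001 bp from its start and so left out, had 148. On the coding side, the summit at Notumos lay 1001 bp from the start of Notum and had a signal of 253. The summit at 5031434O11Rik lay 1000 bp from the start of Setd7, was left out, and had 32.1.

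Summits were spread more evenly about noncoding starts than about coding starts. The median distance from the nearest start was 409 bp at noncoding starts (interquartile range 142 to 721) and 221 bp at coding starts (71 to 528). Of the noncoding-start peaks 19.2% lay within 100 bp of the start, 36.2% within 250 bp and 58.9% within 500 bp, against 32.0%, 53.3% and 73.0% of the coding-start peaks. These distances are bounded at 1 kb by the rule and are given without a test. They are to the nearest of all annotated transcript starts, and the density of starts in each class was not taken into account. With outermost starts only, the classes held 1185 noncoding-start and 8161 coding-start peaks. More summits lay upstream of the noncoding start (650) than downstream of it (519). The downstream share was 44.4% at noncoding starts and 43.7% at coding starts, which is also the background for this count, and the mean difference over chromosomes was 0.54 percentage points (SD 6.12, exact two-sided sign-flip test over 19 chromosomes, adjusted p = 0.703).

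**Figure D1:**
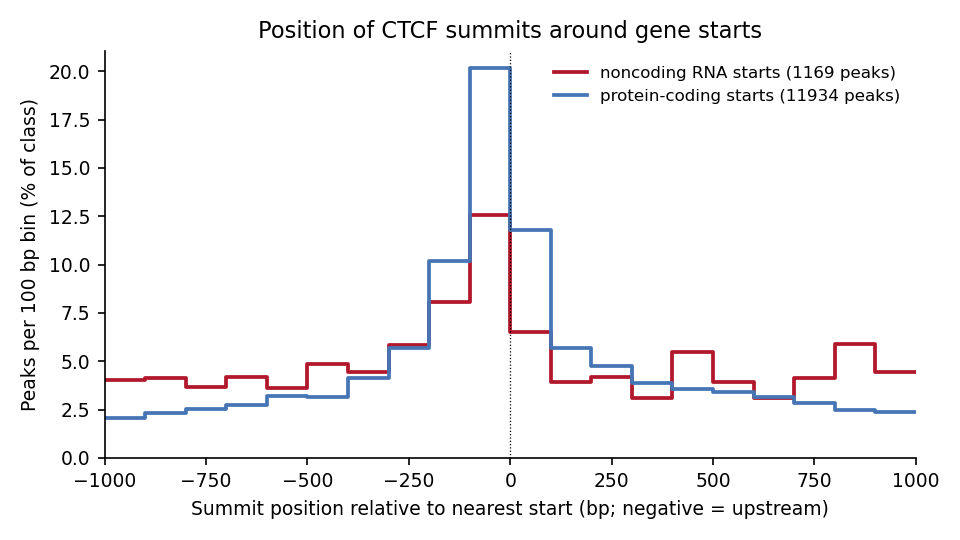
Share of peaks (% of each class) in 100 bp bins by the position of the summit relative to the nearest gene start, with negative values upstream, for noncoding-start and coding-start peaks. Coding-start peaks pile up at the start (32.0% within 100 bp), and noncoding-start peaks show a lower pile (19.2%) and a flatter spread to 1 kb.

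Noncoding-start peaks held a CTCF motif more often than peaks at coding starts and less often than peaks away from starts. A match at p 1e-05 within 50 bp of the summit was found in 562 of 1169 noncoding-start peaks, or 48.1% (45.2 to 50.9), in 30.7% of 11934 coding-start peaks and in 62.3% of 52814 peaks more than 1 kb from any annotated start, against a background of 56.4% of all peaks. Since peaks do not replicate a condition, differences were taken within each of 19 chromosomes and tested over the chromosomes, all from the same libraries. The mean difference from coding-start peaks was 17.4 percentage points (SD 8.20, higher on 19 of 19 chromosomes, exact two-sided sign-flip test, adjusted p = 1.62e-05, from the smallest unadjusted p that 19 chromosomes can give). The mean difference from peaks away from starts was -14.3 points (SD 7.62, lower on 18 of 19, adjusted p = 2.59e-05 by the same exact test). In windows 1 kb to the side of the summit the share with a match was 1.33% for noncoding-start peaks. The median offset of the match centre from the summit was 6 bp.

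Within noncoding starts, the motif share was close at lincRNA and antisense starts at the threshold used, and it varied with position. It was 48.8% at lincRNA starts and 48.3% at antisense starts, and the mean difference of 3.27 points (SD 15.2) did not pass the exact sign-flip test (adjusted p = 0.466). By distance from the noncoding start it was 50.9% at 0 to 100 bp, 41.7% at 100 to 250 bp, 40.6% at 250 to 500 bp and 53.5% at 500 to 1000 bp. Coding-start peaks had 23.8%, 26.8%, 31.6% and 41.4% in the same bins. Peaks within 100 bp of a noncoding start thus held a motif at more than the share in any bin up to 1000 bp from a coding start. Coding-start peaks held it more often with each step outward. The side mattered too, in a comparison chosen after the values were seen. Upstream summits held a motif in 53.1% of 650 cases and downstream summits in 41.8% of 519, with a mean difference of 10.7 points (SD 9.71, higher on 17 of 19 chromosomes, exact sign-flip test, adjusted p = 0.00114).

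**Figure D2:**
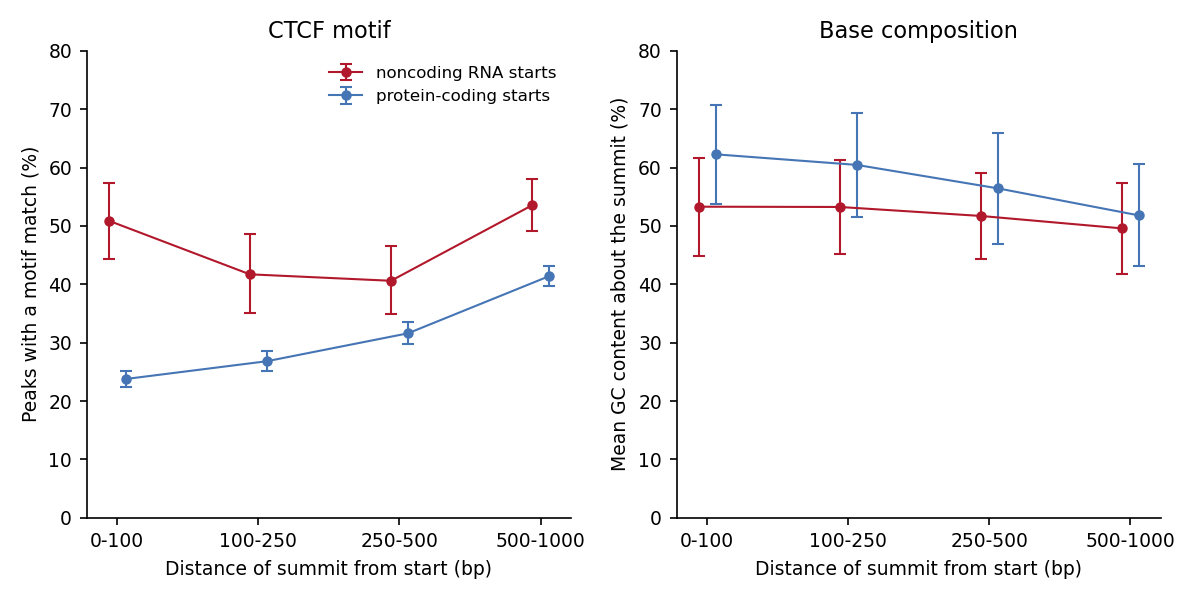
Left, share of peaks with a CTCF motif match (%, bars are 95% Wilson intervals); right, mean GC content over the summit and 150 bp to each side (%, bars are SD), both by distance of the summit from the start in bp. Noncoding-start peaks exceed coding-start peaks in motif share in each of the 4 bins and lie below them in GC content, with the gaps largest close to the start (50.9% against 23.8% and 53.3% against 62.3% at 0 to 100 bp).

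In base composition the noncoding-start peaks again lay between the other classes. GC content over the summit and 150 bp to each side averaged 51.4% (SD 8.01 over peaks), against 57.9% at coding starts and 46.7% away from starts. The differences were -6.49 percentage points from coding starts (SD 1.35 over chromosomes, lower on 19 of 19) and 4.77 points from peaks away from starts (SD 0.75, higher on 19 of 19), each with an adjusted p of 1.62e-05 by the exact sign-flip test. Windows with GC above 50% and a ratio of observed to expected CpG above 0.6, the base composition of CpG islands, made up 168 noncoding-start peaks, or 14.4%, against 47.0% of coding-start peaks and 2.09% of peaks away from starts, on a background of 10.4%. The motif share was also compared within each kind of window, a comparison chosen after the values were seen. Among CpG-rich windows it was 31.5% of 168 noncoding-start peaks and 19.1% of 5610 coding-start peaks, a mean difference of 12.2 points (SD 17.1, higher on 15 of 19 chromosomes, exact sign-flip test, adjusted p = 0.00800). This difference missed the threshold with starts taken within 500 bp (6.11 points, adjusted p = 0.126 by the exact test) and in the stronger 50% of peaks (10.2 points, adjusted p = 0.116). Among all other windows it was 50.8% of 1001 noncoding-start peaks and 41.0% of 6324 coding-start peaks, a mean difference of 10.1 points (SD 9.29, higher on 17 of 19, adjusted p = 4.58e-04 by the exact test).

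Summits on repeat-masked sequence were less common at noncoding starts than away from starts. The share was 12.9% of noncoding-start peaks (151), 9.18% of coding-start peaks and 23.9% of peaks away from starts, on a background of 21.1%. The mean difference was -10.8 points from peaks away from starts (SD 4.14, lower on 19 of 19 chromosomes, exact sign-flip test, adjusted p = 1.62e-05) and 3.50 points from coding-start peaks (SD 4.32, higher on 14 of 19, adjusted p = 0.00525). Summits on a repeat held a motif in 72.8% of cases and had a median signal of 66.8, whereas those off repeats held one in 44.4% and had a median of 99.6. These repeat summits were thus richer in motif and lower in signal than the others, as a description without a test.

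Signal was higher at noncoding starts than at coding starts. The median signal was 92.4 at noncoding starts (interquartile range 41.5 to 249, full range 6.90 to 609), 65.6 at coding starts and 78.9 away from starts. Ranked among all 66972 peaks, with 100 as the highest, the medians were percentile 55.3 at noncoding starts, 45.4 at coding starts and 51.1 away from starts. The mean difference in median percentile was 9.83 from coding starts (SD 6.55, higher on 17 of 19 chromosomes, exact sign-flip test, adjusted p = 1.30e-04). From peaks away from starts it was 3.78 (SD 7.72, higher on 16 of 19), which did not pass (adjusted p = 0.0738), although with either replicate's own list used alone it did (4.07 to 4.17, adjusted p = 0.0146 and 0.00262 by the exact test). The strongest 10% of all peaks held 157 of the noncoding-start peaks, or 13.4%, against 7.35% of coding-start peaks and 10.6% of peaks away from starts, and the weakest 10% held 116, or 9.92%.

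**Figure D3:**
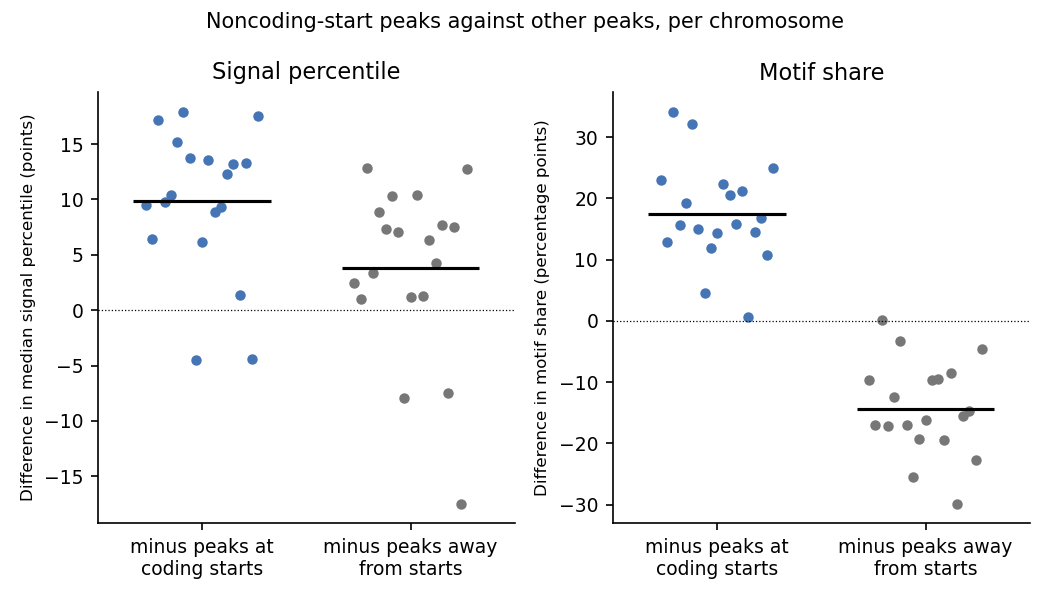
Differences between noncoding-start peaks and each other class, with 1 point for each of 19 chromosomes and a line at the mean, for median signal percentile and for the share with a motif (percentage points). Against coding starts the motif difference is above 0 on all 19 chromosomes, from 0.68 on chromosome 15 to 34.2 on chromosome 3, and the signal difference runs from -4.46 on chromosome 9 to 17.9 on chromosome 7.

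Motif-bearing peaks were stronger at noncoding starts than in either other class, in comparisons chosen after the values were seen. They had a median signal of 207 at noncoding starts, 168 at coding starts and 123 away from starts. Their mean difference in median percentile was 5.08 from coding starts (SD 6.10, higher on 17 of 19 chromosomes, exact sign-flip test, adjusted p = 0.00392) and 11.1 from peaks away from starts (SD 5.84, higher on 18 of 19, adjusted p = 1.22e-04). Against coding starts the call was lost with outermost starts only (2.77, adjusted p = 0.129 by the exact test) and with a motif threshold of 1e-06 (3.05, adjusted p = 0.0864). Peaks without a motif had medians of 51.6, 51.2 and 48.6 in the same order of classes. Their mean differences of 0.41 from coding starts (SD 7.24, adjusted p = 0.808) and 2.17 from peaks away from starts (SD 7.56, adjusted p = 0.258) did not pass the exact test, which does not show that they were equal. With a motif threshold of 1e-06 the first was 4.23 and passed (adjusted p = 0.0198 by the exact test). The second was 4.25 with outermost starts (adjusted p = 0.0365) and 4.75 with a motif threshold of 1e-04 (adjusted p = 0.0169), both past the threshold of the exact test. Whether the step in signal between motif-bearing and other peaks differs between classes was not tested.

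**Figure D4:**
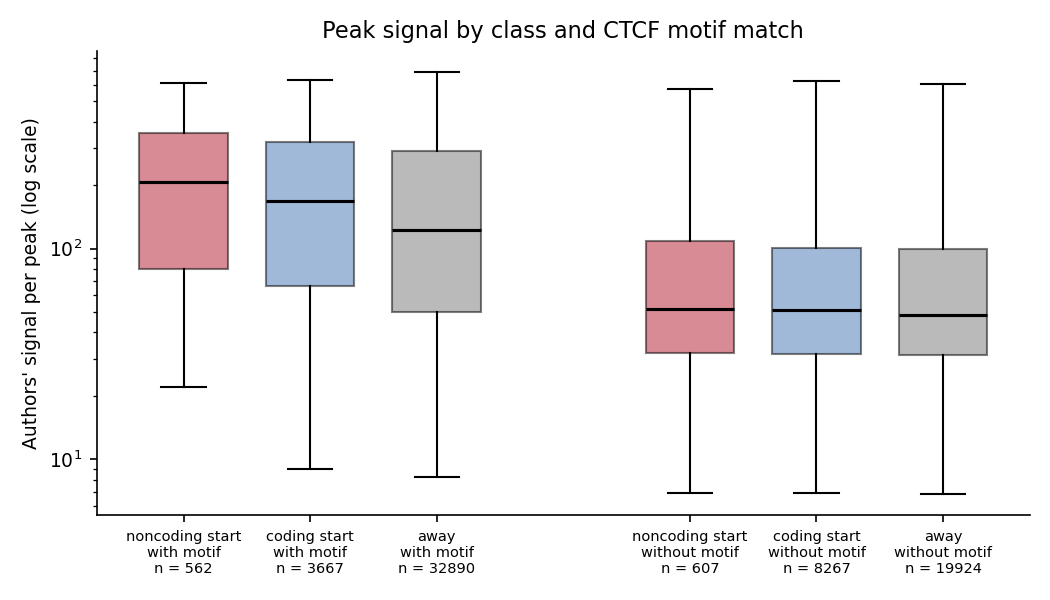
Authors' signal per peak (log axis) for noncoding-start, coding-start and away peaks, each split by whether a CTCF motif lies within 50 bp of the summit; boxes show quartiles and medians, and whiskers the lowest and highest peak. The boxes with a motif sit highest at noncoding starts (median 207), and the boxes without one are close together (51.6, 51.2 and 48.6).

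Among noncoding starts themselves, signal was compared by gene type and by position. Median signal was 96.6 at lincRNA starts, 89.0 at antisense starts and 86.3 at processed transcripts, and lincRNA exceeded antisense starts by 2.05 percentile points (SD 13.7), which did not pass the exact sign-flip test (adjusted p = 0.586). In the stronger 50% of peaks that difference was 4.40 points and passed the exact test (adjusted p = 0.0405). By distance, the median signal was 129 at 0 to 100 bp, 76.0 at 100 to 250 bp, 106 at 250 to 500 bp and 82.1 at 500 to 1000 bp, with no steady order. Upstream summits had a median signal of 108.8 and downstream summits 78.0, a mean difference of 9.02 percentile points (SD 11.0, higher on 15 of 19 chromosomes, adjusted p = 0.00392 by the exact test, a comparison chosen after the values were seen). That call was lost in the conservative list (6.80, adjusted p = 0.0871 by the exact test), with distances of 2 kb (7.09, adjusted p = 0.0573), with outermost starts (6.30, adjusted p = 0.0789) and without replicate 2 (4.17, adjusted p = 0.190).

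Summits at noncoding starts lay inside protein-coding genes less often than summits of the other classes, as a description without a test. The annotation used by the rule bears on this contrast. LincRNA genes, which lie between protein-coding genes, account for 695 of the 1169 peaks, and coding-start peaks lie by definition near the edge of a coding gene. The summit fell within the body of a protein-coding gene for 318 noncoding-start peaks, or 27.2%, against 68.9% of coding-start peaks and 51.7% of peaks away from starts, on a background of 54.2%. Of the 318, 297 lay in a coding gene transcribed from the other strand and 21 in one on the same strand only. The share inside coding genes was 71.1% for antisense starts, 25.5% for processed transcripts and 6.76% for lincRNA starts, as the definitions of these classes imply. Median signal was 81.1 inside coding genes and 96.8 outside them, a mean difference of -3.67 percentile points (SD 16.02) that did not pass the exact sign-flip test (adjusted p = 0.466). An exon of a noncoding gene held the summit in 273 cases, or 23.4%, against 3.75% of coding-start peaks, 0.80% of peaks away from starts and 1.72% of all peaks. The rule's closeness to a noncoding start bears on this share, which is given without a test.

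The CTCF motif reads differently on its 2 strands, so its direction can be set against that of transcription. With the G-rich reading of the consensus as its forward direction, the motif ran along the transcribed strand in 310 of 562 noncoding-start peaks with a match, or 55.2% (51.0 to 59.2), and in 53.7% of 3667 coding-start peaks. The mean excess over an even split at noncoding starts was 4.81 points (SD 8.85, above on 13 chromosomes and below on 5), which missed the threshold (exact sign-flip test, adjusted p = 0.0534). With starts taken within 500 bp it was 9.44 points (adjusted p = 0.0125 by the exact test), and with a motif threshold of 1e-04 it was 4.70 (adjusted p = 0.0102). It was 3.19 with a motif threshold of 1e-06 (adjusted p = 0.317 by the exact test), 3.41 with distances of 2 kb (adjusted p = 0.0828) and 3.85 in the conservative list (adjusted p = 0.140), none of which passed. By distance, as a description chosen after the values were seen, the share was 66.5% at 0 to 250 bp (131 of 197; 59.6 to 72.7), 48.1% at 250 to 500 bp and 49.4% at 500 to 1000 bp. The coding-start shares were 58.0% (55.6 to 60.4), 51.2% and 50.1% in those bins. Motifs close to the start thus ran with transcription in both classes more often than those farther out.

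The strongest noncoding-start peaks were mostly at placeholder-named lincRNA genes, as were the noncoding-start peaks in general. For background, 946 of the 1015 nearest genes bear a placeholder symbol, and 695 of the 1169 peaks were at lincRNA starts. AC113104.3 on chromosome 18 led with a signal of 609 (289 in replicate 1 and 319 in replicate 2), its summit 459 bp upstream of the start and its sequence not shown. AC122818.2, whose sequence without a match is shown above, followed with 570 (290 and 283). Gm33195 and Gm31408, also shown above, had 557 and 556. The other lincRNA genes of the 10 were 4930478P22Rik (549, near the homeobox gene Hmx1, whose start lies 27064 bp away), Gm26812 (539), Gm41414 (539), Epb41l4aos (538) and Gm17382 (529). A930015D03Rik, at 535, was the antisense gene among them. All 10 were in both replicates' lists and in the conservative list, and 9 of 10 held a motif. Over the 157 members in the strongest 10% of all peaks, 22 lacked a motif, AC122818.2, Gm31812 and Gm12925 among them. In that strongest 10%, 184 of 877 coding-start peaks and 532 of 5587 peaks away from starts lacked one.

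Selected noncoding RNA genes were taken from 5 gene lists of 137 symbols, some of them placeholder symbols. Of the symbols, 89 belong to the 3 gene types in the annotation and 78 have a start away from coding starts. In all 24 had a noncoding-start peak, 23 of them among the 78, and 11 of the 24 strongest peaks held a motif. A further 11 had a peak at a start shared with a coding gene only. The lists were drawn up with earlier results of these data known, so their counts are descriptions, to be read against the 13.3% of all 7349 genes.

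Among imprinted noncoding RNAs, 2 of 11 genes had a start peak. Meg3, a maternally expressed RNA of the Dlk1-Meg3 domain, had the stronger, with a signal of 301.4 (166 in replicate 1 and 134 in replicate 2) 776 bp downstream of a start. Nespas, transcribed antisense to Nesp at the Gnas locus, had 79.8 (39.0 and 38.4) 22 bp upstream of its start and 2401 bp from a Gnas start, with a motif at the summit. No start peak was listed for H19, whose nearest summit lay 1131 bp from a start, just past the limit of the rule. Airn, whose transcription silences Igf2r on the paternal copy, had its nearest summit 5269 bp away, Gm26945 25604 bp away and B830012L14Rik 54594 bp away. Kcnq1ot1, the antisense RNA of the Kcnq1 domain, is named after its value was seen, with its nearest summit 33150 bp away.

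Host genes of small RNAs had the highest share of the 5 lists, with start peaks at 10 of 19. Among hosts of small nucleolar RNAs, Snhg17 had a signal of 332 (173 and 159 in replicates 1 and 2), 22 bp upstream and without a motif. Snhg15 had 314 (162 and 150) 130 bp upstream, with the match shown above. The weaker members of this family were Snhg8 at 198, Snhg12 at 163, Snhg5 at 113 and Snhg20 at 30.9, of which Snhg8 held a motif. For Snhg20 a summit within 100 bp was listed in replicate 1 only. Among hosts of microRNAs, Mir17hg, which carries the miR-17 to miR-92 cluster, had 214 (126 and 87.1), its summit 627 bp upstream with a motif. Mir9-3hg, host of a miR-9 gene active in neural progenitors, had 58.6 (24.1 and 33.4) without a motif, and Dleu2, host of miR-15a and miR-16, had 32.9. No start peak was listed for Gas5, the nearest summit being 32654 bp away, for Mir124a-1hg (2002 bp) and Mir124-2hg (2852 bp), hosts of the neuronal miR-124, or for Mir133a-1hg (9352 bp). Another 5 hosts, among them Snhg3 and Mir22hg, had peaks only at starts that lie by coding starts.

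Noncoding RNAs of the Hox clusters had a start peak in 1 of 9 genes. It lay at Hoxd3os1, an antisense gene inside Hoxd3, 57 bp from its start and 4010 bp from the start of Hoxd4, with a signal of 307 (168 and 144 in replicates 1 and 2) and the motif shown above. Hotair, which lies among the Hoxc genes, had its nearest summit 4266 bp away, Hottip, at the outer end of the Hoxa cluster, 5646 bp away, Hoxa11os 3847 bp away and Hotairm1, between the first Hoxa genes, 38950 bp away.

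Noncoding neighbours of neural transcription factor genes had start peaks in 2 of 14 genes. Sox2ot, the transcript that overlaps the neural progenitor gene Sox2, had a signal of 353 (191 and 161 in replicates 1 and 2), 893 bp downstream of a start and 11008 bp from the start of Sox2, with the match shown above. Pantr1, beside the neural POU factor gene Pou3f3, had 46.9 (26.7 and 19.01) without a motif, 1748 bp from the Pou3f3 start. No start peak was listed for Dlx6os1, also called Evf2, whose nearest summit was 1042 bp away, for Dlx1as (10139 bp) or for Evx1os (7451 bp). At Nkx2-2os the peak within 1 kb of a start (752 bp) was also within 1 kb of a coding start and so was left out.

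In the list drawn up as nuclear and brain noncoding RNAs, 9 genes had a start peak. Of these, 8 were among the 25 counted as having a start away from coding starts. The name of the list is loose, and expression of its genes in brain was not examined. Epb41l4aos was strongest with 538 (269 and 270 in replicates 1 and 2). Rapgef4os1, transcribed opposite the neuronal exchange factor gene Rapgef4, followed with 295 (153 and 145), and then Gm10010 with 184 and Zfas1, a host of small nucleolar RNAs, with 131. These 4 held a motif, and the weaker 5 did not. Crnde, 1467 bp from the start of Irx5, had 103 (39.9 and 64.7). Neat1, the RNA scaffold of nuclear paraspeckles, had 89.0 (50.7 and 40.4) 205 bp upstream of a start. 1700020I14Rik had 64.2, C130071C03Rik, which carries a miR-9 gene and lies 68323 bp from Mef2c, had 34.3, and Rmst, known to act with Sox2 in neurogenesis, had 31.4. Without a start peak were 2610307P16Rik (nearest summit 2328 bp away), Atcayos (3575 bp), Bvht (1336 bp) and Carmn (1036 bp). Malat1, an abundant RNA of nuclear speckles, is named after its value was seen, with its nearest summit 3727 bp from a start.

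**Figure D5:**
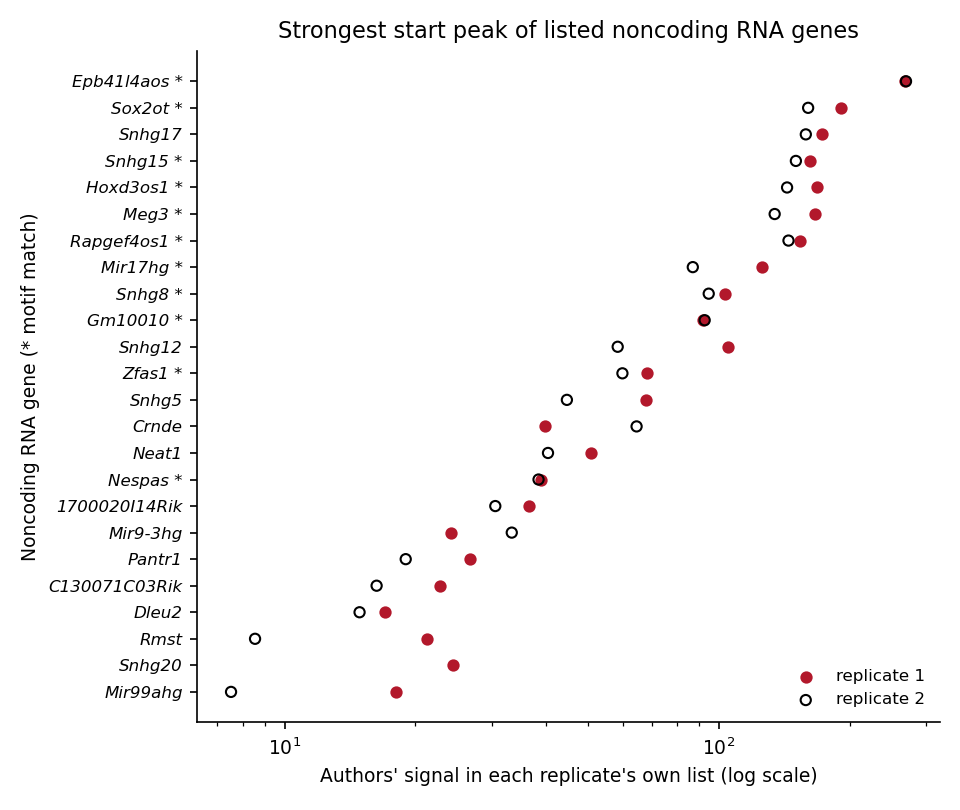
Authors' signal of the strongest noncoding-start peak of each of the 24 listed genes that have one, in replicate 1 (filled) and replicate 2 (open), on a log axis, with an asterisk where a motif match lies at the summit. Epb41l4aos, Sox2ot and Snhg17 are among the highest in both replicates, and Snhg20 has a value in replicate 1 only.

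Some genes held several start peaks of very unequal strength. Meg3, with 5, had signals of 24.2, 212, 301.4, 46.5 and 7.79 in order along chromosome 12, and only the middle pair of strong peaks, at 212 and 301.4, held a motif. The peak at 212 lay 92 bp upstream of a start with its motif on the plus strand, the strand of Meg3, and the peak at 301.4 had its motif on the minus strand. The processed transcript 3110039I08Rik, with 4, had 437, 250, 22.9 and 114, of which the first held a motif. AC131675.3 on chromosome 18, also with 4, had 22.6, 9.68, 24.6 and 7.38, all among the weakest 10% of the series. Gm43154 had 492, 66.7 and 42.4, and Gm37885, an antisense gene inside Capn2, had 398, 37.2 and 58.3. Not all of these peaks are separate regions. The Gm37885 summits at 398 and 37.2 lie in the same listed interval. The intervals of the Meg3 peaks at 46.5 and 7.79 overlap. So do those of AC131675.3 at 22.6 and 9.68, and those at 24.6 and 7.38. The strong peaks of Meg3, 3110039I08Rik, Gm43154 and Gm37885 thus stand beside weak ones, and AC131675.3 has weak ones only.

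The replicates matched closely at noncoding starts, as they did in the other classes. All these peaks come from the optimal list and had to pass an IDR threshold, so part of the agreement was set by that selection. A summit within 100 bp was listed in both replicates for 1131 of 1169 peaks, or 96.7%, against 94.6% of coding-start peaks and 98.6% of peaks away from starts. After the median difference between libraries was taken off, signals agreed within a factor of 2 for 95.2% of noncoding-start, 92.9% of coding-start and 95.2% of away peaks. The median absolute log2 deviation was 0.20 at noncoding starts, 0.25 at coding starts and 0.22 away from starts. Noncoding-start peaks thus deviated less than coding-start peaks, by a mean of -0.05 (SD 0.04, lower on 16 of 19 chromosomes, exact sign-flip test, adjusted p = 9.32e-04), and their difference of -0.0078 from peaks away from starts did not pass (adjusted p = 0.520). The conservative list is the stricter of the deposited lists. It had a summit at the same base for 88.1% of noncoding-start peaks, 83.7% of coding-start peaks and 87.6% of peaks away from starts. The background was 86.9%. These shares count identical summits only. With its own summits classed by the same rule, that list held 1126 noncoding-start, 11366 coding-start and 50453 away peaks. The optimal list held 1169, 11934 and 52814. The difference in the same-base share was 4.36 points from coding starts (SD 3.62, higher on 16 of 19, adjusted p = 3.06e-04 by the exact test) and 0.40 from peaks away from starts (adjusted p = 0.681). The classes also differed in median signal, as given above, and the part of signal in these differences was not tested.

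Among members listed in both replicates, those that departed most from this agreement had signals of 32.5 to 62.0, below the median of 76.2 over all peaks. Members without a summit in a replicate's list could not be ranked in this way. With the higher percentile in replicate 1 were AC132452.1 (54.5 in replicate 1 and 14.4 in replicate 2), Gm40477 (48.6 and 14.5), Gm32468 (42.5 and 9.94), Gm48004 (37.7 and 5.59) and AC115692.1 (34.6 and 5.34). With the higher percentile in replicate 2 were Gm31698 (6.29 in replicate 1 and 50.2 in replicate 2), E130018N17Rik (7.88 and 48.1), Gm14488 (0.91 and 37.6), Gm40513 (14.2 and 47.3) and 1810012K16Rik (12.2 and 44.1). None of these 10 had its exact summit in the conservative list, and AC132452.1 was the one with a motif. The lowest signals of all were at Gm6277 (8.20), Gm15469 (8.02), Meg3 (7.79), AC131675.3 (7.38) and Gm46404 (6.90), each without a motif. Each also lacked a summit within 100 bp in at least 1 replicate's list. The exact summits at Gm6277, Meg3 and Gm46404 were nevertheless in the conservative list, and those at Gm15469 and AC131675.3 were not.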

How the data were processed

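Peaks were read from 5 deposited narrowPeak lists on mm10, per the deposited text notes: 1 for each replicate, 1 for both together, and the optimal and conservative IDR lists. The signal per peak is the authors'. Its scale, the aligner, the peak caller, the IDR threshold and the read depth were not given in the sources used here. Other deposited columns gave the peak position and the summit offset. Replicate values are those of each replicate's own list, from a summit within 100 bp. Members, gene lists and tests were chosen with earlier results of these data known. Genes were named by rule: the 10 highest and 5 lowest signals, the 5 most unequal between replicates in each direction, the 5 genes with most peaks, and per list up to 8 with a start peak (the figure shows all) and 4 without one in alphabetical order; Snhg3, Snhg20, Mir22hg, Rmst, Kcnq1ot1 and Malat1 were added after their values were seen.

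Coordinates are 1-based. No sequence from chromosome 18 is printed. Sequence and repeat masking came from the RefSeq copy of GRCm38.p6, the same build, and genes from GENCODE vM21. A 20 bp CTCF matrix trained on the 2000 highest-signal peaks of odd chromosomes scored the even ones, and the reverse. A match needed p 1e-05 with its centre within 50 bp of the summit. Class differences were computed within each of 19 chromosomes and tested with an exact two-sided sign-flip permutation test, with Benjamini-Hochberg adjustment over 17 tests, and over 8 further tests chosen after values were seen, at a threshold of 0.05. The smallest unadjusted p is 3.81e-06. The chromosomes share the same libraries, so the test is not one over animals. Shares have 95% Wilson intervals, which cover counting error only. Alternatives were the conservative list, each replicate's own list, the stronger 50% of peaks, distances of 500 bp and 2 kb, basic transcripts, outermost starts, and motif thresholds of 1e-04 and 1e-06. Scripts were tested on simulated data. Python 3.11.15, numpy 2.4.6, pandas 2.3.3, scipy 1.17.1 and matplotlib 3.10.9 were used.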

Additional observations from a re-analysis of the deposited data

How the results depend on the processing

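Of 216 recomputed values, 191 kept their direction and their side of the threshold (counts within 1.5 times), and 9 became past the threshold, 8 no longer passed it, 6 turned in sign and 2 moved. The motif, GC and repeat differences from both other classes, and the signal difference from coding starts, kept direction and call in every alternative run, with the motif difference from coding starts between 12.7 and 22.1 points and that from peaks away from starts between -19.03 and -6.92. The cause of the changes below was not tested. The signal difference from peaks away from starts was 4.07 to 4.17 without each replicate in turn, and both passed. It missed the threshold at 2.96 in the conservative list, 3.23 with 500 bp, 1.91 with 2 kb, 2.81 with outermost starts and 3.27 with basic transcripts. The motif strand excess was 4.44 to 4.82 with a replicate left out (exact test, adjusted p = 0.0498 without replicate 1), 9.44 with 500 bp distances and 4.70 with a motif threshold of 1e-04, all past the threshold but the 4.44, and it missed it at 3.19 with a motif threshold of 1e-06, 3.41 with 2 kb, 3.85 in the conservative list, 4.21 with outermost starts and 4.51 with basic transcripts. The downstream share difference turned to -1.88 with outermost starts and ran from -0.19 to 1.60 with a replicate left out. The conservative-list difference from peaks away from starts turned to -0.25 with 500 bp, -0.22 with 2 kb and -0.24 with outermost starts. The share of noncoding genes with a start peak was 9.32% with 500 bp and 18.9% with 2 kb distances. Upstream against downstream signal was 6.80 in the conservative list, 7.09 with 2 kb, 6.30 with outermost starts and 4.17 to 9.46 with a replicate left out. The motif difference in CpG-rich windows was 6.11 with 500 bp and 10.2 in the stronger 50% of peaks. Signal of motif-bearing peaks against coding starts was 2.77 with outermost starts and 3.05 with a motif threshold of 1e-06. For peaks without a motif the difference from coding starts was -1.12 with 2 kb and 4.23 with a motif threshold of 1e-06, and that from peaks away from starts was 4.25 with outermost starts and 4.75 with a motif threshold of 1e-04. LincRNA against antisense signal was 4.40 in the stronger 50% of peaks.

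Leaving out a replicate here means using the strongest peaks of the other replicate's own list, which also drops the IDR threshold and the signal of both replicates together. No paired analysis was possible because there is 1 group only. Read depth is unknown, which limits what an unlisted weak peak shows.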

Other observations

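Distance from the nearest protein-coding start did not order the noncoding-start peaks by motif. The 289 peaks 1 to 5 kb from a coding start had a motif share of 46.7% and a median signal of 110, and the 314 at 5 to 20 kb had 51.6% and 107. Farther out, the 379 at 20 to 100 kb had 46.7% and 81.5, and the 187 beyond 100 kb had 47.1% and 83.0. The median signal was thus lower beyond 20 kb, as a description with no test.

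Some genes have a symbol ending in os or as, with or without a number after it. Such endings often name a gene by the coding gene on the opposite strand, though the set also takes in Gas5. Of these genes, 31 of 195, or 15.9% (95% Wilson interval 11.4 to 21.7), had a noncoding-start peak. Of all 7349 noncoding genes 979 had one, or 13.3%, which lies within that interval. By annotation level, 10 of 77 experimentally tested genes (level 1, 13.0%), 947 of 7123 manually annotated genes (level 2, 13.3%) and 22 of 149 automatically annotated genes (level 3, 14.8%) had one. The shares at all 3 levels differed by less than their intervals.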
